A study of Mus musculus with 4 samples.

Results

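Chemokines and cytokines are secreted proteins by which blood cells call and instruct each other. C-C and C-X-C chemokines bind G protein-coupled receptors on leukocytes and direct their migration, while interleukins, tumour necrosis factor, transforming growth factor beta and the colony-stimulating factors act on inflammation, survival and lineage output. In marrow progenitors several of these genes are already transcribed, and many of their mRNAs are short-lived. Measured here were 10 of them in granulocyte/monocyte progenitors (GMP), the marrow cells that give rise to neutrophils and monocytes: the C-C chemokines Ccl3, Ccl4, Ccl6 and Ccl9, the C-X-C chemokine Cxcl2, the cytokines Il12a, Il1b, Tnf and Tgfb1, and the growth factor Csf1. Every probe set whose platform annotation names 1 of these genes was taken, which gave 15 of the 22626 probe sets shared by the 2 array types and 1 more, for Tgfb1, among the 45101 probe sets of the larger array.

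GMP purified by flow cytometry from mice deficient in Icsbp, a transcription factor also named Irf8 that binds DNA with members of the ETS and interferon regulatory factor families, were set against GMP from wild type mice aged 10 to 16 weeks like them. Each genotype was measured on 1 Affymetrix 430A array and on 1 MOE430_2 array, 4 arrays in all, each from its own preparation of marrow pooled from at least 8 Icsbp-deficient or at least 10 wild type mice. The wild type 430A sample is labelled as GMP of mixed C57/Bl6 and S129Ola background with no genotype, and its place comes from the series' design text. For the other 3 samples the strain background, and for the mutant allele the deleted part, are not stated in the labels. A further Icsbp-deficient preparation named in that text was not analysed here.

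The targeted gene was read by 2 probe sets on every array. The first Irf8 probe set had scaled signals of 2776 (430A) and 2725 (MOE430_2) in Icsbp-deficient GMP, against 3059 and 4798 in wild type GMP, and the second had 3234 and 1892 against 3074 and 1847. Neither passed the test described below (log2 ratios of -0.48 ± 0.15 and 0.06 ± 0.12, limma adjusted p = 0.091 and 0.832). These probe sets therefore do not check the genotype labels, since it is not known whether they lie in the deleted part. All 9 GMP markers were above the low-signal line defined below on the mean of the arrays, with Mpo, Elane, Ctsg and Prtn3 at percentile 99.9 or above. All 9 mature neutrophil markers and 6 of 7 erythroid markers on the arrays were above the line too. Lying above it therefore does not tell GMP from other cells. Within the GMP list Fcgr3 and Cebpa were higher and Cd34 was lower in Icsbp-deficient GMP. The lists of other cell types moved too. All 6 tested basophil and mast cell markers were lower, while 4 of the 10 on the arrays lay under the line. A marker can lie above the line through wild type GMP alone, as Fcer1a did, at 51.5 and 24.9 against 232 and 385. The share among the 6 therefore cannot be read as a property of all 10. Summed scaled signals over the 10 were 1949 and 2164 in Icsbp-deficient GMP against 5221 and 5759 in wild type GMP. Of 9 mature neutrophil markers 6 were higher, with sums of 7638 and 11341 against 2539 and 2076. Of 7 tested macrophage and monocyte markers 3 were higher and 1 lower, with sums over 12 markers of 12857 and 16735 against 7261 and 9810, while 5 of the 12, C1qa, C1qb, C1qc, Marco and Cd5l, lay under the line. Of 11 T and NK cell markers on the arrays 9 lay under the line, Cd3d, Cd3e and Cd3g among them. Gzmb, 1 of the 2 above it, was lower, at 52.7 and 6.30 against 337 and 293 (log2 ratio -2.24, limma adjusted p = 0.00018). Both Icsbp-deficient signals of Gzmb lay under the line, so Gzmb too was tested through wild type GMP. Of 6 tested erythroid markers 2, Car1 (-2.37) and Car2 (-2.21), were lower, with sums over 7 markers of 838 and 299.8 against 1658 and 2169. Of 3 tested dendritic cell markers 1, H2-Aa (-1.44), was lower, and 5 of the 8 on the arrays lay under the line. Of 4 tested megakaryocyte markers 1, Itga2b (-0.86), was lower. The other 3 had ratios above 0 and did not pass, and the median of the 4 was 0.05. Of 9 B cell markers 6 lay under the line, Pax5 and Ms4a1 among them. The 3 tested had log2 ratios of 0.31 to 0.71 and did not pass, with 2 at an unadjusted limma p under 0.05. Sums over the 9 were 1136 and 904 in Icsbp-deficient GMP against 927 and 707 in wild type GMP. What part these cells have in the results below was not tested. In sorted cells measured in bulk, fewer cells of a type and less RNA per cell cannot be told apart.

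Signals were scaled to a common trimmed mean of 500. A ratio below sets Icsbp-deficient over wild type GMP on a log2(scaled signal + 50) scale, on which changes of low signals are understated. The test was limma across 7820 genes with array type as a block and Benjamini-Hochberg adjustment, with a threshold of 0.05. Errors given as ± are moderated standard errors over n = 2 array types, borrowed mostly from other genes. A probe set is called low where its mean lay under the 40th percentile, a scaled signal of 76.8, and low probe sets were not tested.

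Of the 10 genes, 7 were tested and 3, Ccl3, Cxcl2 and Tnf, were low. Il12a and Ccl9 were higher in Icsbp-deficient GMP, Ccl6 was lower, and Ccl4, Il1b, Csf1 and Tgfb1 did not pass. These 3 calls among 7 genes stand beside 579 calls among all 7820 tested genes, or 7.4%, with 4.12% of all genes called higher and 3.29% lower. Because a gene can pass the low-signal filter through the genotype in which it is high, as Ccl6 did through wild type GMP, the share among the tested genes cannot be read as a property of all 10. The median log2 ratio of the 10 genes was -0.00089, with a range of -1.09 to 0.99, and that of all tested genes was -0.01. The genotypes' scaled signals did not overlap for 3 of the 7 tested genes, Il12a, Ccl9 and Ccl6, a pattern that 26.6% of all tested genes showed, 12.3% with Icsbp-deficient GMP above and 14.4% with it below. The 2 ratios had the same sign in 6 of the 7 genes and in 65% of all tested genes, and 4 of the 7, the called ones and Csf1, had an unadjusted p under 0.05, as did 21.3% of all. Counted by probe set, 2 of the 11 tested were called higher and 1 lower, where 5.13% of all tested probe sets were called, 2.99% higher and 2.14% lower. Without array type as a block, or with any 1 array left out of such a fit, limma called 0 of the 10 genes (0 to 2 at an unadjusted p under 0.05), but such fits called few genes of any kind, 1 of all 7820 without the block and 32 to 36 with an array left out as well.

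**Figure D1:**
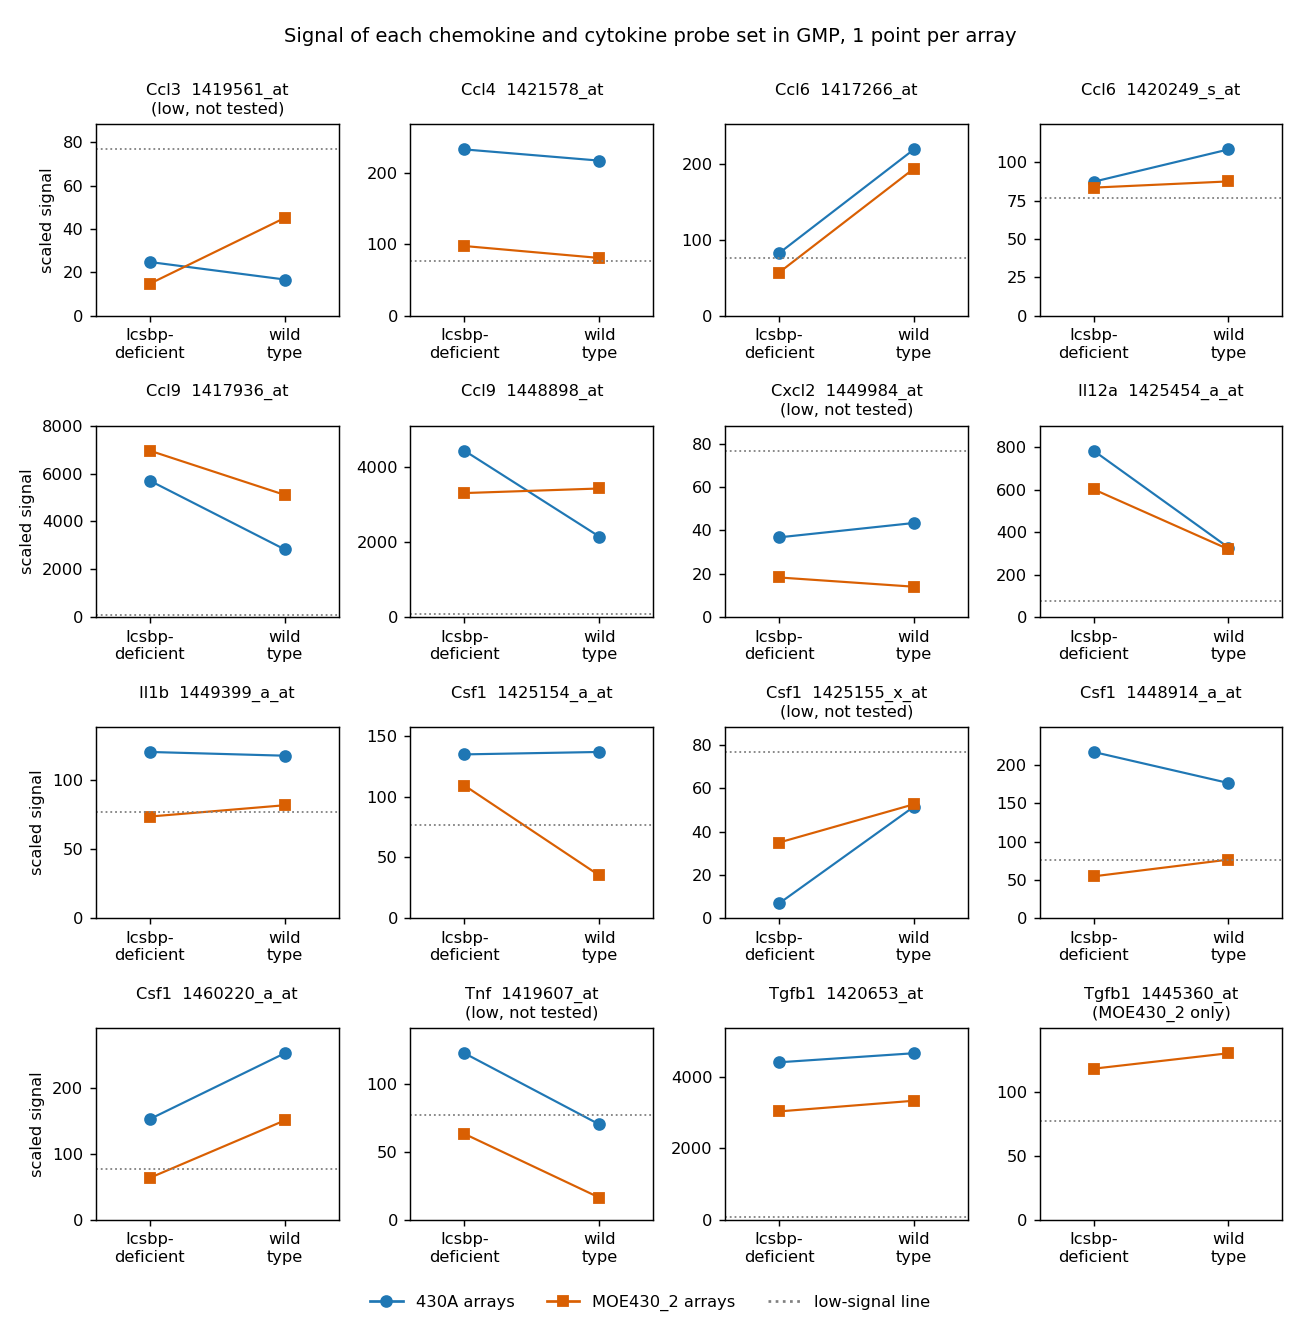
Scaled signal (vertical axis, arbitrary units from 0, a scale of its own in each panel) of the 16 probe sets in Icsbp-deficient GMP (left) and wild type GMP (right), with 1 point per array and lines joining the 2 arrays of a type. Il12a and the first Ccl9 probe set were higher and the first Ccl6 probe set lower in Icsbp-deficient GMP on both array types, and the dotted line is the low-signal line of 76.8.

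Ccl9, a C-C chemokine of mouse myeloid cells that signals through the receptor Ccr1, was among the strong signals of these cells, its first probe set lying at percentile 97.5 of all probe sets by mean. Probe set 1417936_at had scaled signals of 5707 (430A) and 6963 (MOE430_2) in Icsbp-deficient GMP, against 2831 and 5113 in wild type GMP. Both Icsbp-deficient arrays were above both wild type arrays, the wild type 430A array standing lowest. The log2 ratio was 0.65 ± 0.14, or 1.57-fold with a 95% interval of 1.27 to 1.95 (limma adjusted p = 0.0181), with a ratio of 0.97 from the 430A pair and 0.34 from the MOE430_2 pair. The second probe set, 1448898_at, had 4441 and 3310.1 against 2148 and 3432, so the log2 ratio was 1.04 for the 430A pair and -0.08 for the MOE430_2 pair. Its mean ratio of 0.48 ± 0.21 did not pass (adjusted p = 0.262 over all probe sets). The call of the first probe set ended without the filter on low signals (adjusted p = 0.0765) and without an intensity trend in the variance (adjusted p = 0.108). In fits without array type as a block, leaving out the wild type 430A array gave 0.21, and leaving out the wild type MOE430_2 array gave 1.10. These values mix array type with genotype and are not comparable with the 0.65 above. The wild type 430A array, the lowest for Ccl9, was deposited at a trimmed mean of 498, against 159 to 167 on the other 3. What part its scale has in the Ccl9 ratio was not tested.

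Ccl6, a related C-C chemokine of mouse myeloid cells that also binds Ccr1, went the other way. Probe set 1417266_at had scaled signals of 82.6 and 57.1 in Icsbp-deficient GMP, against 219 and 194 in wild type GMP. Both Icsbp-deficient arrays were below both wild type arrays and close to the low-signal line. The log2 ratio was -1.09 ± 0.19, or 2.13-fold lower with a 95% interval of 1.58 to 2.87 (limma adjusted p = 0.00708), with single-pair ratios of -1.03 (430A) and -1.15 (MOE430_2). It ranked 56 from the lowest of 7820 genes. The second Ccl6 probe set, 1420249_s_at, had 87.4 and 83.5 against 108 and 87.6. Its Icsbp-deficient arrays were also below both wild type arrays, but by little, and it did not pass, with a ratio of -0.09 ± 0.22 (adjusted p = 0.871 over all probe sets, 95% interval -0.58 to 0.40). The suffix _s_at marks a probe set whose probes can match several transcripts.

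Ccl9 and Ccl6 lie next to each other in a run of 5 protein-coding genes on chromosome 11, in the order Ccl5, Ccl9, Ccl6, Ccl3 and Ccl4 in the RefSeq annotation of GRCm38.p6. Ccl4, also known as macrophage inflammatory protein 1 beta, had scaled signals of 233 and 97.7 in Icsbp-deficient GMP, against 217 and 81.0 in wild type GMP. The arrays of each type differed more from those of the other type than the genotypes did. Its log2 ratio of 0.15 ± 0.19 did not pass (adjusted p = 0.706), with an interval of -0.27 to 0.56 that holds changes of up to about 1.48-fold upwards. Ccl3, macrophage inflammatory protein 1 alpha, a ligand of Ccr1, was low, at 24.8 and 14.8 against 16.8 and 45.2, with ratios of 0.19 (430A) and -0.54 (MOE430_2). Ccl5 was low as well, at 46.4 and 12.9 against 56.5 and 6.23. The 3 tested genes of this run thus comprised 1 rise, 1 fall and 1 gene that did not pass.

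The 250 bases before the RefSeq start of each of these called neighbours are shown because the pair adjoin and were called in opposite directions. Capitals mark the ETS core GGAA on either strand, the core bound by PU.1, a known partner of Irf8, and a simple NF-kappaB form, GGG and CC with any 5 bases between them, on either strand. Both sequences are printed 5′ to 3′ on the gene's strand, from RefSeq, build GRCm38.p6, minus strand, Ccl9 at chr11:83578637-83578886 and Ccl6 at chr11:83593088-83593337.
Ccl9: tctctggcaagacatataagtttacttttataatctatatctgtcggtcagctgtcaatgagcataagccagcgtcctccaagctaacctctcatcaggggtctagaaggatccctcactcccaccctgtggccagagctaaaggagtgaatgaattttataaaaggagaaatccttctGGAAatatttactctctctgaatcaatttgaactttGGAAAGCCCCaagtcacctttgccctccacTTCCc
Ccl6: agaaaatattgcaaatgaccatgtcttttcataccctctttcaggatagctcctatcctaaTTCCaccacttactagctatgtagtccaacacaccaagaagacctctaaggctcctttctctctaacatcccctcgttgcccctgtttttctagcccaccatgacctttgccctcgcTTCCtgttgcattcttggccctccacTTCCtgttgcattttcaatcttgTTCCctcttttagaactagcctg
The Ccl9 window held 3 ETS cores and 1 NF-kappaB form, which overlaps 1 of the cores, and the Ccl6 window held 4 ETS cores and 0 NF-kappaB forms. All 4 cores of Ccl6 read on the opposite strand, as TTCC. An ETS core was found in 93.45% and the NF-kappaB form in 45.8% of the 32851 windows in the table. The element to which interferon regulatory factors bind, GAAA repeated after any 2 bases, searched on both strands, was found in 2.98% of windows and in 0 of the 10 windows of the 9 genes with an entry, and a window without it says nothing about binding elsewhere. Ccl4 had no entry in the table.

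**Figure D2:**
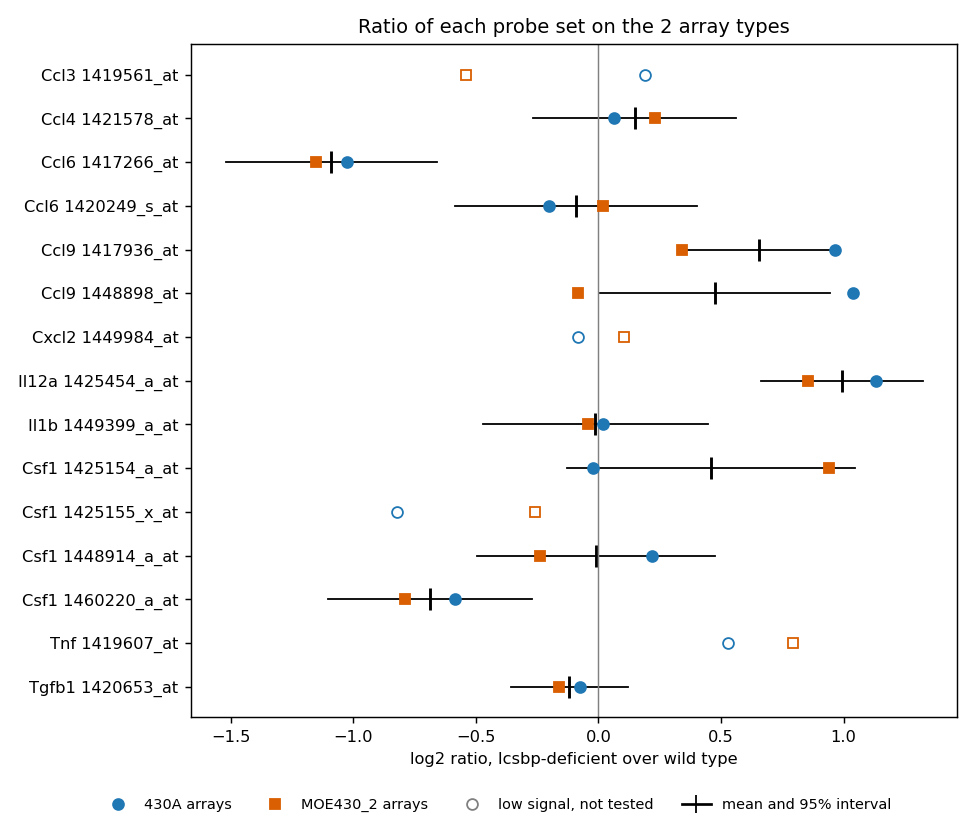
Log2 ratio of Icsbp-deficient over wild type (horizontal axis) for the 15 probe sets on both array types, with a circle for the 430A and a square for the MOE430_2 arrays. Bars are the moderated mean and 95% interval, and open symbols are low probe sets, which were not tested. The 2 Ccl6 probe sets, the 2 Ccl9 probe sets and the 4 Csf1 probe sets differed among themselves.

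Cxcl2, a C-X-C chemokine that attracts neutrophils through the receptor Cxcr2, was low on all 4 arrays, at 36.8 and 18.3 in Icsbp-deficient GMP against 43.4 and 14.0 in wild type GMP. Its ratios were -0.08 and 0.11, so neither a level nor a change was measurable for it. Cxcr2 itself was at 85.0 and 165 against 98.6 and 90.7, a log2 ratio of 0.27 that did not pass. Of 31 further chemokines on a list, 28 were on the arrays and 24 of these were low as well. The 4 tested, Cxcl13 (-0.50), Cxcl16 (-0.12), Ccl27a (0.10) and Ccl8 (0.41), gave 0 calls in limma, with 1 at an unadjusted p under 0.05, and their median was -0.01. Of the chemokine genes tested, the members and this list together, only Ccl9 and Ccl6 passed. Low genes were not tested and so could not pass. Mean log2 ratios of the 24 low genes on the list ran from -0.43 (Pf4) to 1.07 (Cxcl10). Cxcl10 was at 99.6 and 102 in Icsbp-deficient GMP against 4.81 and 48.0 in wild type GMP.

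Il12a encodes the p35 chain, which pairs with the p40 chain (Il12b) as interleukin 12 and with Ebi3 as interleukin 35. Its probe set, 1425454_a_at, had scaled signals of 783 and 601 in Icsbp-deficient GMP, against 327 and 319 in wild type GMP. The wild type arrays were nearly equal, and both Icsbp-deficient arrays stood well above them. The log2 ratio was 0.99 ± 0.15, or 1.99-fold with a 95% interval of 1.58 to 2.50 (limma adjusted p = 0.00254), with single-pair ratios of 1.13 (430A) and 0.85 (MOE430_2). It ranked 75 from the highest of 7820 genes.

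Of the partner chains, Ebi3 was higher as well, at 950 and 812 in Icsbp-deficient GMP against 470 and 471 in wild type GMP, a log2 ratio of 0.85 ± 0.14 (1.8-fold, limma adjusted p = 0.00461). Il12b was low, at 77.8 and 30.6 against 82.0 and 13.4, and was not tested. The receptor chains Il12rb1 and Il12rb2 were low too.

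RefSeq gives 2 starts for Il12a, and the 250 bases before each are shown with the same capitals, since Il12a had the smallest adjusted p of the 10 genes. They lie on the plus strand of GRCm38.p6 at chr3:68690394-68690643 and chr3:68691174-68691423.
Il12a, first start: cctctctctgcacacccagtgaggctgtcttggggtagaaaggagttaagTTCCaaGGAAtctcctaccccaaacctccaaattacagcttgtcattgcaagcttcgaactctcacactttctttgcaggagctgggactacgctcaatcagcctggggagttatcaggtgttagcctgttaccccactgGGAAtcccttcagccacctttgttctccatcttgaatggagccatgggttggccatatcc
Il12a, second start: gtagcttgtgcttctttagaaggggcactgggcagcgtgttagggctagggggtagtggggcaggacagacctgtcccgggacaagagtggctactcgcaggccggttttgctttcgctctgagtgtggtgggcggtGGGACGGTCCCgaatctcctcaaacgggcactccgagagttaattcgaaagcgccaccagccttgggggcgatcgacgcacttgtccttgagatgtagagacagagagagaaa
The first window held 3 ETS cores and 0 NF-kappaB forms. The second held 0 ETS cores and 2 overlapping matches to the NF-kappaB form, 1 on each strand. The suffix _a_at marks a probe set for several transcripts of 1 gene, so its signal does not tell which start was used.

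**Figure D3:**
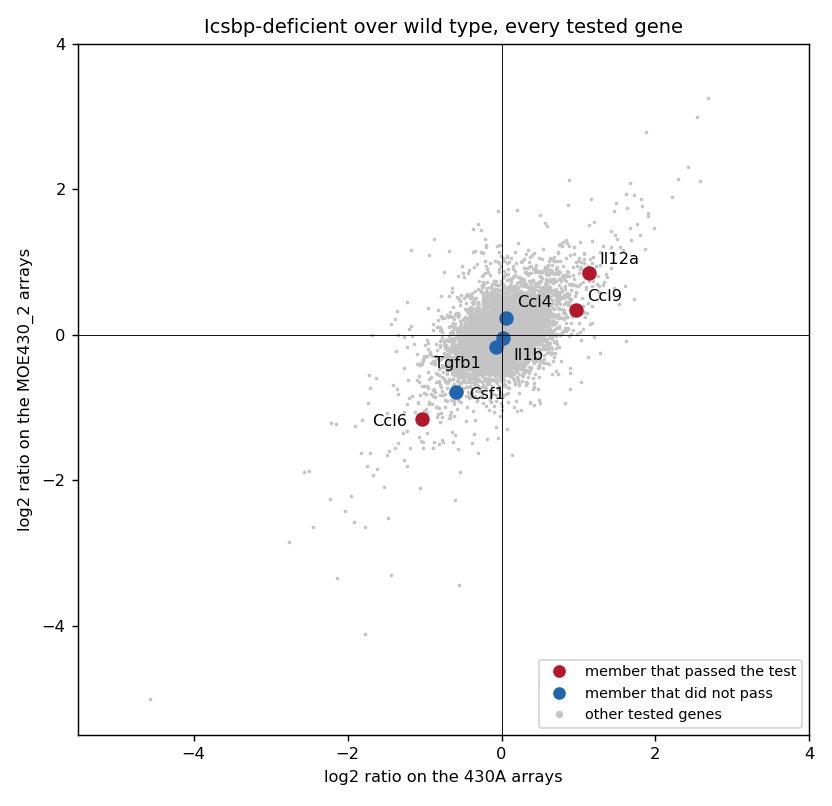
Log2 ratio of Icsbp-deficient over wild type from the 430A pair (horizontal) and the MOE430_2 pair (vertical) for the 7820 tested genes, with the 7 tested chemokine and cytokine genes named. Il12a and Ccl9 (0.97 and 0.34) lie in the upper right, Ccl6 and Csf1 in the lower left, and Ccl4, Il1b and Tgfb1 near the centre.

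Csf1, macrophage colony-stimulating factor, the ligand of Csf1r, was read by 4 probe sets that disagreed. The one with the highest mean, 1460220_a_at, had scaled signals of 153 and 63.7 in Icsbp-deficient GMP, against 253 and 151 in wild type GMP. The genotypes overlapped slightly, since the Icsbp-deficient 430A array was just above the wild type MOE430_2 array. Its log2 ratio of -0.69 ± 0.19 missed the threshold (limma adjusted p = 0.0536, 95% interval -1.10 to -0.27), and it passed in 4 of the 8 other processing settings with array type as a block that tested it. Probe set 1448914_a_at had 217 and 54.9 against 177 and 76.7, a ratio of -0.01 ± 0.22, and 1425154_a_at had 135 and 109 against 137 and 35.2, a ratio of 0.46 ± 0.26, neither of which passed. The fourth, 1425155_x_at, whose suffix marks probes that can match other sequences, was low at 6.88 and 35.0 against 51.6 and 52.7. The receptor Csf1r was nearly equal between the genotypes, at 2761 and 4195 against 2720 and 4258 (log2 ratio -0.01 ± 0.11, 95% interval -0.26 to 0.23).

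Il1b, the secreted interleukin 1 that caspase 1 cleaves to its active form, had scaled signals of 121 and 73.8 in Icsbp-deficient GMP, against 118 and 82.0 in wild type GMP. The signals lay close to the low-signal line, with the Icsbp-deficient MOE430_2 array under it, and the genotypes overlapped. The log2 ratio was -0.01 ± 0.21 (limma adjusted p = 0.98), and its 95% interval of -0.47 to 0.45 does not exclude changes of up to about 1.39-fold downwards or 1.36-fold upwards. Its competitor Il1rn, the interleukin 1 receptor antagonist, was at 0.17 ± 0.22 and Casp1 at -0.26 ± 0.13, and neither passed. The decoy receptor Il1r2 was at 118 and 155 against 77.9 and 47.7, a ratio of 0.74 ± 0.24 that did not pass (adjusted p = 0.0907).

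Tnf, tumour necrosis factor, was low by its mean. Its probe set had scaled signals of 122 and 63.0 in Icsbp-deficient GMP, against 70.0 and 16.2 in wild type GMP, so that 1 of the 4 arrays lay above the line. On each array type the Icsbp-deficient array was the higher one, with log2 ratios of 0.53 and 0.79. Without the filter on low signals the ratio was 0.66 ± 0.21 (limma adjusted p = 0.192), which did not pass. Of its receptors, Tnfrsf1b was higher, at 1427 and 1190.4 against 719 and 531 (log2 ratio 1.03 ± 0.14, 2.04-fold, adjusted p = 0.00117), and Tnfrsf1a was at 0.17 ± 0.13 (adjusted p = 0.516). Adam17, the protease that sheds Tnf from the cell surface, was at -0.31 ± 0.14 (adjusted p = 0.23).

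Tgfb1, transforming growth factor beta 1, a regulator that restrains growth of many hematopoietic cells, was the other strong signal, at percentile 96.5. Probe set 1420653_at had scaled signals of 4405 and 3029.8 in Icsbp-deficient GMP, against 4658 and 3328 in wild type GMP. On each type the wild type array was slightly the higher one, and the genotypes overlapped. The log2 ratio of -0.12 ± 0.11 did not pass (limma adjusted p = 0.583), and its 95% interval, -0.36 to 0.12, bounds a fall at about 1.28-fold. The probe set carried by the MOE430_2 array alone, 1445360_at, had 118 against 130, a log2 ratio of -0.04 with no replicate. The type I and II receptors were at 0.01 ± 0.14 (Tgfbr1) and 0.03 ± 0.21 (Tgfbr2, with -0.46 for 430A and 0.53 for MOE430_2). The co-receptor Eng was lower, at 303 and 209 against 637 and 421 (log2 ratio -0.90 ± 0.15, adjusted p = 0.005).

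Related lists give the setting. Their counts stand beside 7.4% of all tested genes called, 4.12% higher and 3.29% lower. Of 15 tested further cytokines and growth factors, out of 46 on the arrays, 3 rose and 0 fell. They were Ebi3, the angiogenic factor Vegfa (1.03 ± 0.15, adjusted p = 0.0019) and the secreted growth factor progranulin, Grn (0.52 ± 0.11, adjusted p = 0.0155). Vegfa stood at 602 and 633 in Icsbp-deficient GMP against 247 and 312 in wild type GMP. The list's median log2 ratio was 0.17. The interleukins Il18 (0.52 ± 0.19) and Il16 (0.39 ± 0.13) and the cytokine Tnfsf14 (-0.07 ± 0.21) did not pass. Both Icsbp-deficient arrays were above both wild type arrays for Il18 and Il16 and below both for Tnfsf14. Of all tested genes, 12.3% showed the first pattern and 14.4% the second.

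Of 10 tested receptors of the 10 genes, 1 rose (Tnfrsf1b), 1 fell (Eng) and 8 did not pass, with a median of 0.20. Ccr1, the receptor of Ccl9 and Ccl6, was at 211 and 351 in Icsbp-deficient GMP against 270.1 and 94.4 in wild type GMP. Its ratios of -0.31 (430A) and 1.52 (MOE430_2) were of opposite sign, and their mean of 0.61 ± 0.33 did not pass (adjusted p = 0.32).

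Of 20 tested genes of cytokine processing and release 2 rose, 1 fell and 17 did not pass, with a median of 0.02. The fall was in Dpp4, a peptidase that trims the amino terminus of several chemokines. Dpp4 was at 27.5 and 73.8 in Icsbp-deficient GMP against 241 and 256 in wild type GMP, a log2 ratio of -1.58 ± 0.22 (limma adjusted p = 0.00159). Both Icsbp-deficient signals lay under the low-signal line of 76.8, so Dpp4 passed the filter through wild type GMP. The rises were in Casp4, the inflammatory caspase that in the mouse senses lipopolysaccharide inside cells (0.77 ± 0.18, adjusted p = 0.0265), and Mefv, or pyrin (0.50 ± 0.13, adjusted p = 0.048). Without the filter on low signals neither Casp4 nor Mefv passed. Genes that bind AU-rich elements or degrade mRNA, through which transcripts of Tnf and other cytokines are kept short-lived, gave 0 calls among 11 tested, with 0 at an unadjusted p under 0.05 and a median of -0.12. Among them Zfp36, tristetraprolin, was at 0.18 ± 0.17 and Elavl1 at -0.24 ± 0.12.

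**Figure D4:**
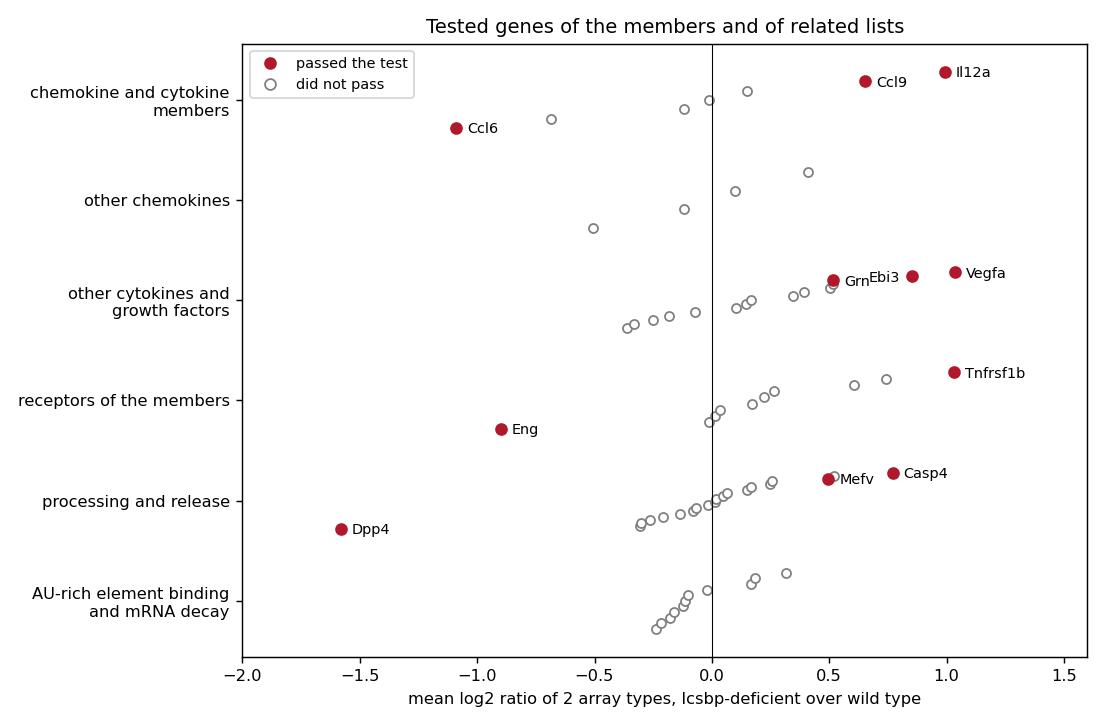
Mean log2 ratio of the 2 array types, Icsbp-deficient over wild type (horizontal axis), for each tested gene of the 10 and of 5 related lists, 1 point per gene. Filled points passed the test and are named, and vertical position within a list only spreads the points. Named points stand in 4 of the 6 rows.

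The genes whose pair of ratios lay nearest to those of a called gene, by Euclidean distance over the 2 array types among all tested genes, were Pip5k1b, Ceacam1 and Dram1 for Il12a, at distances of 0.02 to 0.05. For Ccl9 they were Lfng, Tbc1d8 and Chd7, at 0.03 to 0.05, and for Ccl6 they were Cd74, Slc45a3 and Lgalsl, at 0.03 to 0.05. With 2 ratios per gene this likeness describes 4 arrays only.

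**Figure D5:**
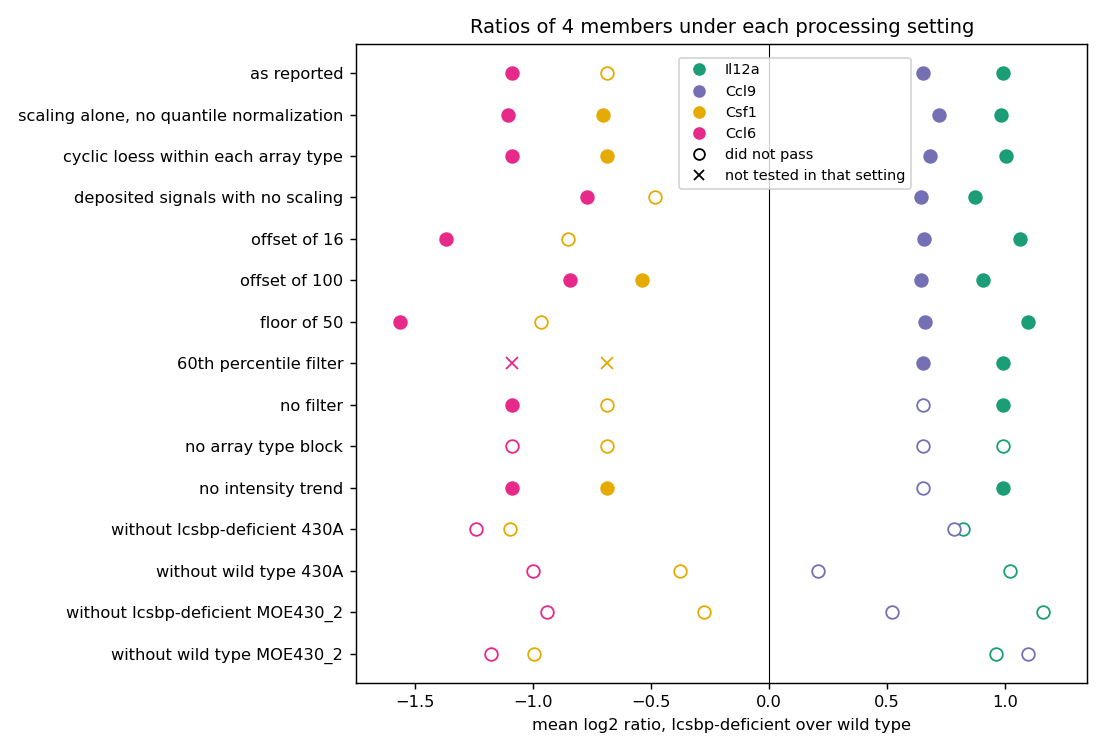
Mean log2 ratio of 4 genes, Icsbp-deficient over wild type (horizontal axis), under each processing setting (rows), filled where the gene passed the test. Il12a stayed between 0.82 and 1.16, Ccl6 between -1.56 and -0.77, Csf1 passed in some rows only, and no gene of the 4 passed with array type left out of the fit, where 1 of all 7820 genes did, or with an array left out as well, where 32 to 36 did.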

How the data were processed

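Per the labels, biotin-labelled RNA from sorted cells was hybridised to Affymetrix arrays, and the authors deposited 1 linear signal intensity for each probe set. The MOE430_2 values came from GCOS per the submitters' processing notes. Per the labels, the Icsbp-deficient 430A sample used an ENZO kit and 5 µg of RNA, the MOE430_2 samples a one-cycle kit and 1 to 2 µg, and for the wild type 430A sample neither is stated. Over the shared probe sets, trimmed means (2% off each end) of the deposited signals were 167 and 159 for Icsbp-deficient 430A and MOE430_2, against 498 and 160.4 for wild type.

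Of 22690 shared probe sets, 64 controls were dropped. Arrays were brought to the trimmed mean of 500, 50 was added, log2 taken, and each type's pair quantile normalized. Low probe sets (9050) stayed out of the test, and among a gene's tested probe sets that of highest mean stood for it. Platform annotation named 1 gene for 20380 probe sets, several for 691 and none for 1555, and 20351 matched the RefSeq table (GRCm38.p6).

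Genotypes were compared with limma 3.58.1 under R 4.3.3. The model held genotype plus array type, variances were moderated along an intensity trend, tests were two-sided, and 1 residual stood beside 9.65 prior degrees of freedom. The code was tested on simulated data. Probe sets not standing for a gene carry p-values adjusted over 13576 probe sets. With 4 arrays precision is limited. Log2 signals correlated at 0.979 to 0.98 across genotypes in a type, and at 0.958 to 0.959 across types in a genotype. The genes named are the 10 and, from each related list, the called genes (up to 6) and direct partners of the 10. Some genes outside that rule, such as Il18, Il16 and Tnfsf14, were named as well. Genes, lists and settings were chosen with earlier results of these data known. Alternatives changed the normalization, offset, filter or variance model, dropped the block, or left out each array.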

Additional observations from a re-analysis of the deposited data

How the results depend on the processing

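With array type as a block, 2 of the 10 genes passed upwards and 1 downwards, beside 579 of all genes. Without the block (no pairing of the arrays by type) limma called 0 upwards, 0 downwards and 1 of all genes, with 2 of the 10, Ccl6 and Il12a, at an unadjusted p under 0.05. Leaving out each array in turn, in the fit without the block, gave 0 calls in either direction among the 10, 0 to 2 at an unadjusted p under 0.05, and 32 to 36 calls among all genes. Without the wild type 430A array the Ccl9 ratio was 0.21, and without the wild type MOE430_2 array it was 1.10. Csf1 moved between -0.28 and -1.10 in these fits, whose ratios mix genotype with array type. Upward calls among the 10 were 1 without the filter (287 of all genes) and 1 without the intensity trend (330), where Ccl9 was lost. Downward calls were 2 with scaling alone, with cyclic loess, with an offset of 100 and without the trend, where Csf1 joined Ccl6, and 0 with the 60th percentile filter, which left Ccl6 untested. Counting every tested probe set by itself gave the same 2 and 1. Il12a passed in all 9 other settings that kept the block, Ccl6 in all 8 that tested it and Ccl9 in 7 of 9.

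Where the ratio of a gene or probe set changed sign, that ratio had not passed. With an array left out and no block, the genotypes stand unevenly over the array types, so the ratios of such fits mix genotype with array type. For Ccl4 the ratios within the types were 0.06 (430A) and 0.23 (MOE430_2). Over the fits that left out an array, Ccl4 ran from -0.38 (without the wild type MOE430_2 array) to 0.68, with -0.30 without the Icsbp-deficient 430A array. Il1b ran from -0.23 to 0.21 (without the Icsbp-deficient MOE430_2 array), with 0.18 without the wild type 430A array, and Tgfb1 from -0.39 to 0.15, with 0.11, for the same arrays. Ccl6 probe set 1420249_s_at ran from -0.21 to 0.027 (without the wild type 430A array). Csf1 probe set 1425154_a_at ran from -0.11 (without the wild type MOE430_2 array) to 1.03. Csf1 probe set 1448914_a_at ran from -0.67 to 0.65, with 0.43 without the wild type 430A array, and was at 0.032 with unscaled signals and 0.0082 with an offset of 100. Without the filter the median was 0.12 for further chemokines and -0.02 for further cytokines and growth factors. In that setting 2 further cytokines and growth factors and 0 genes of processing and release passed upwards, with 287 calls among all genes. With scaling alone 2 receptors passed upwards. Beyond that mixing, the cause of these changes was not tested. The number of arrays limits what can be measured, as does signal under the low-signal line for Ccl3, Cxcl2 and Tnf.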
